A study of Homo sapiens with 4 samples.

Results

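The genes of the subunits of RNA polymerases I, II and III were read in U937 cells that had received shikonin or its solvent. U937 is an established human line from a lymphoma of monocytic character. Shikonin, a naphthoquinone pigment of plant roots, was given at 100 nM for 3 h, and the control cells had dimethyl sulfoxide (DMSO), for a time that is not given. Each group had 2 samples, each on its own Affymetrix U133 Plus array. No label says that the samples came from separate cultures, so every p-value measures the spread between these samples, which may be technical. Members were all probe sets (groups of short probes summarised into 1 signal) whose single gene symbol starts with POLR1, POLR2 or POLR3. There were 75 of 54675 in all, for 32 genes. Of the 75, 64 were bright enough to be tested and 11 were not, and each of the 32 genes kept at least its brightest probe set, which stands for the gene in every count.

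Cells of animals divide transcription among 3 nuclear RNA polymerases. RNA polymerase I makes the large ribosomal RNA precursor in the nucleolus, RNA polymerase II makes messenger RNA and many small nuclear RNAs, and RNA polymerase III makes transfer RNA, 5S ribosomal RNA and other short RNAs. Each enzyme is built around its own largest and second largest subunit, which form the active site. Several small subunits, encoded by POLR2E, POLR2F, POLR2H, POLR2K and POLR2L, sit in all 3 enzymes, and POLR1C and POLR1D are shared by polymerases I and III. The largest subunit of polymerase II carries a long C-terminal tail of heptad repeats that is phosphorylated as the enzyme starts and elongates.

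Of the 32 genes, 30 encode core subunits or a near copy of one. The other two are POLR1HASP, a non-coding gene antisense to POLR1H, and POLR2J4, a pseudogene of the POLR2J family. The copy POLR2J3 and the polymerase II regulator POLR2M were not analysed as genes here, because no probe set was assigned to them alone. Signals are the authors' deposited values on a linear scale, and a log2 change is the difference of log2(signal + 9.94), which understates the change of dim genes. A gene was called when limma's adjusted p, over all 32768 probe sets tested, was under 0.05.

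The promoters of POLR1A, POLR2A, POLR2E and POLR3B are shown because these genes were all called higher after shikonin; POLR2I, also called, had no promoter entry. They run from 120 bases before the RefSeq start to 10 bases from it on (GRCh38.p14, 5′ to 3′ on the gene's strand). Capitals mark matches, on either strand, to the palindromic site of the transcription factor NRF1 (nuclear respiratory factor 1), or to GGGCGG, the GC box. No base lies in both motifs.
POLR1A, chr2:86105877-86106006, minus strand: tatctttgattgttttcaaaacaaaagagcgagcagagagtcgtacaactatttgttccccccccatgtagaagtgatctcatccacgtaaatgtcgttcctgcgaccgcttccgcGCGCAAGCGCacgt
POLR2A, chr17:7484246-7484375, plus strand: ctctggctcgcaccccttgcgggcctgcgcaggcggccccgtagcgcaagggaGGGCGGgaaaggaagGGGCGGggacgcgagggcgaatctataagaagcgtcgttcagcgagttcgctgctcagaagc
POLR2E, chr19:1095366-1095495, minus strand: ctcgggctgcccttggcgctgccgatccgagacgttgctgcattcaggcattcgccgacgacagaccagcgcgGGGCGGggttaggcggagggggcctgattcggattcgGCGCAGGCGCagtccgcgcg
POLR3B, chr12:106357990-106358119, plus strand: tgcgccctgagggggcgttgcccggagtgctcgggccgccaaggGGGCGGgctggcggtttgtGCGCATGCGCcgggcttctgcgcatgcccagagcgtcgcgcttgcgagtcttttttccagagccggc

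The NRF1 site was found in 4.19% of all 35116 promoters of this 130-base window and in 8 of the 29 promoters of the 23 member genes with an entry. The 8 belong to 7 genes, POLR1A, POLR2B, POLR2E, POLR2F, POLR2H, POLR2J2 and POLR3B. POLR2H and POLR3B have the site at only 1 of their listed starts. The ETS site CCGGAAG was in 6.77% of all promoters and in 7 of the 29. The GC box was found in 34.7% of all promoters and in 18 of the 29. The full heat shock element, sought on either strand, was in 0.228% of all promoters and in none of the members', and the core of the antioxidant response element (TGACNNNGC) was in 6.76% and in that of POLR2C. A match is a run of letters only, and binding was not measured.

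After shikonin, 5 of the 32 polymerase genes were called higher and 0 lower by limma. The 5 were POLR1A, POLR3B, POLR2A, POLR2E and POLR2I, from 1.59-fold down to 1.18-fold. They include the largest subunits of polymerases I and II and the second largest of polymerase III. Over all 13554 genes tested, 5.05% were called higher and 6.68% lower. Among the 6126 genes whose signal lay in the range of the core subunits (557 to 7074, POLR2J2 aside), the shares were 8.13% and 11.2%. At an unadjusted p under 0.05, 12 members were higher and 0 lower. The same cut gave 1810 higher and 1989 lower of all 13554 genes, and 1177 and 1333 of the 6126 in that range. Both shikonin arrays exceeded both DMSO arrays in 20 of the 32 genes (62.5%) and lay below both in 5, against 28.2% and 27.3% of all genes. Of the 29 core genes in that signal range, 5 were called higher. Of these 29, 18 were higher and 4 lower without overlap, against 34.1% and 32.7% of all genes in it. The median log2 change of the members was 0.11, and that of all genes tested was 0.00. All 5 calls depend on letting the variance prior of limma vary with brightness: under 1 common prior limma called 0 members (5 had an unadjusted p under 0.05).

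**Figure D1:**
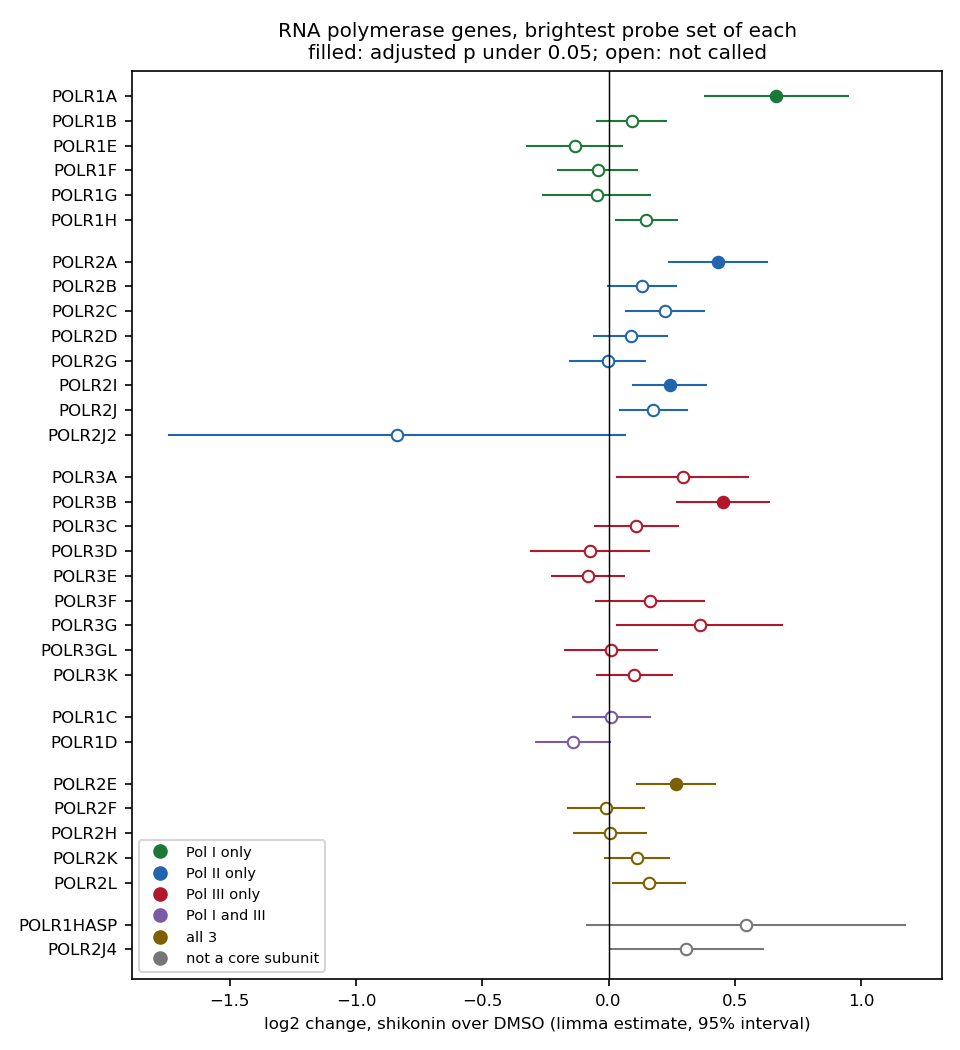
Log2 change after shikonin relative to DMSO (x axis) for each of the 32 genes on its brightest probe set, with the limma 95% interval as a line, coloured by the polymerase that holds the subunit. Filled points mark the 5 genes called at an adjusted p under 0.05, and all 5 lie right of 0.

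Among the largest subunits, which carry much of the active site, POLR1A of polymerase I read 408 and 447 on the DMSO arrays and 743 and 628 on the treated ones. Both treated arrays were above both controls, by 1.59-fold (log2 change 0.67, SE 0.12, limma adjusted p = 0.0123). The call was lost without shikonin 1 (0.55, limma adjusted p = 0.0665). POLR2A, the largest subunit of polymerase II, read 1016 and 1078 in DMSO and 1358 and 1481 after shikonin. Its groups did not overlap either, and it was 1.35-fold higher (0.43, SE 0.086, limma adjusted p = 0.0156). Without DMSO 1 or shikonin 2 the adjusted p of limma was 0.0597 and 0.0791, at log2 changes of 0.39 and 0.37. POLR3A, the largest subunit of polymerase III, had signals of 551 and 505 in DMSO and 613 and 688 after shikonin. These groups did not overlap, but POLR3A was not called (0.29, 95% interval 0.04 to 0.55, limma adjusted p = 0.153). The other tested probe sets of POLR3A changed by 0.10 and, on a dim one, by 0.18, with no call.

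Of the second largest subunits, which complete the active site, POLR3B gave 1134 and 1077 in DMSO and 1550 and 1483 after shikonin. The groups stood clearly apart, with POLR3B 1.37-fold higher (0.45, SE 0.081, limma adjusted p = 0.00967), the smallest adjusted p of the 32 genes. It kept the call without any 1 array, at log2 changes of 0.42 to 0.49. POLR1B of polymerase I read 3494 and 3515 against 3807 and 3667, and POLR2B of polymerase II read 7042 and 6462 against 7341 and 7452. Both pairs were without overlap, yet small: POLR1B changed by 0.09 (95% interval -0.04 to 0.23) and POLR2B by 0.13 (-0.00 to 0.27), and neither was called.

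**Figure D2:**
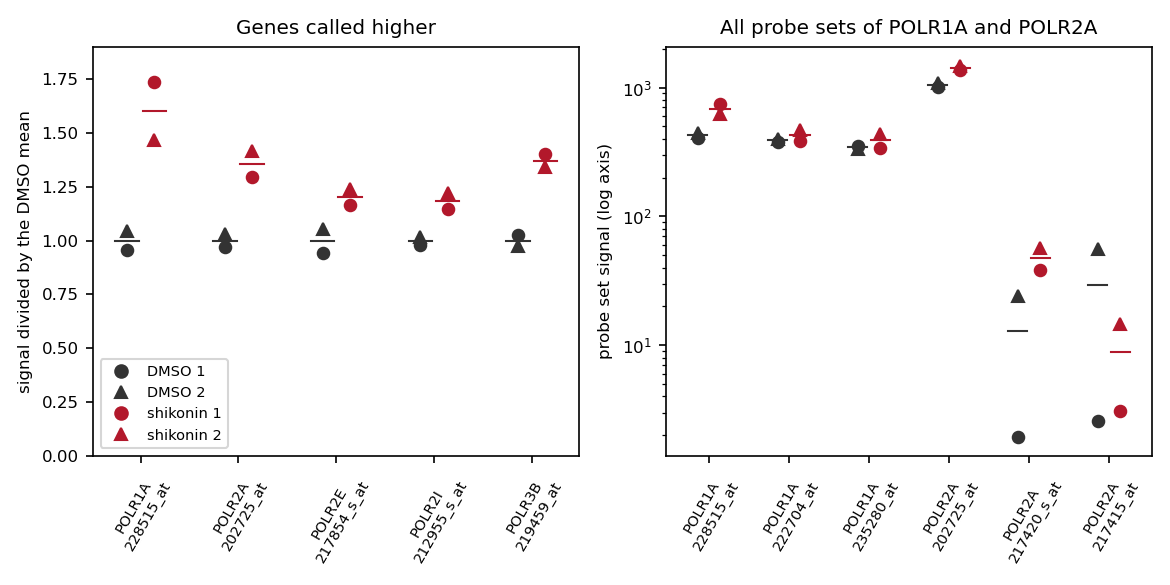
Left, the signal of each array divided by the DMSO mean for the 5 genes called higher; right, the signal on a log axis of every probe set of POLR1A and POLR2A. Black marks DMSO, red marks shikonin, circles and triangles mark samples 1 and 2, and lines mark means. POLR1A has the largest ratio and the widest gap between its shikonin arrays, and its other probe sets show smaller differences.

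Polymerase II had 2 genes called, POLR2A and POLR2I, and no other gene particular to it passed. POLR2I, a zinc ribbon subunit linked to the fidelity of transcription, had signals of 3310.5 and 3437 in DMSO and 3867 and 4125 after shikonin, so the arrays did not overlap. It was 1.18-fold higher (0.24, SE 0.064, limma adjusted p = 0.0469), close to the threshold. The call of POLR2I went without any 1 of the 4 arrays. In the order DMSO 1, DMSO 2, shikonin 1 and shikonin 2 left out, limma's adjusted p was 0.157, 0.0832, 0.0752 and 0.224. POLR2C, part of the platform on which the enzyme is assembled, was just outside the threshold at 0.22 (limma adjusted p = 0.0760), with 2359 and 2419 against 2894 and 2695. Its platform partner POLR2J read 5067 and 4960 against 5515 and 5830 (0.18, limma adjusted p = 0.0943). The probe set of POLR2J is of the cross-hybridizing _x_at kind and near copies of the gene exist, so the copy that its signal belongs to is uncertain.

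The stalk of polymerase II, formed by POLR2D and POLR2G, is where the new RNA emerges. POLR2D read 2679 and 2671 against 2804 and 2881 (0.09), without overlap and not called. POLR2G read 3967 and 4147 against 4224 and 3882, overlapped, and had a change of -0.00 (95% interval -0.15 to 0.15). POLR2J2, the near copy of POLR2J, was dim, with 107 and 79.8 in DMSO and 67.7 and 32.2 after shikonin. Its estimate of -0.84 was the lowest of all members, with a 95% interval of -1.74 to 0.07 and no call.

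Polymerase III has a subcomplex for promoter opening, made of POLR3C, POLR3F and either POLR3G or its paralogue POLR3GL, and a TFIIF-like pair, POLR3D and POLR3E. POLR3G, the form linked to undifferentiated cells, read 722 and 574 in DMSO and 934 and 737 after shikonin (0.36, 95% interval 0.03 to 0.69, limma adjusted p = 0.165). Its lowest treated array was only just above the highest control. On the other tested probe set of POLR3G, 206654_s_at, the change was 0.09, with overlap. POLR3GL read 1587 and 1457 against 1570 and 1492 (0.01, 95% interval -0.17 to 0.19), with overlap. The difference between these paralogues was not tested. POLR3F read 691 and 693 against 775 and 777 (0.16), and POLR3C read 1706 and 1780 against 1924 and 1841 (0.11). Both were higher on each treated array, with no call.

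The TFIIF-like pair lay on the other side. POLR3D read 626 and 666 against 608 and 619 (-0.07), and POLR3E read 3341 and 3180 against 3100 and 3067 (-0.08). Neither pair of groups overlapped, and neither gene was called. POLR3K, which serves RNA cleavage and termination, read 2617 and 2467 against 2726 and 2731 (0.10, 95% interval -0.05 to 0.25).

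Polymerase I has corresponding parts: POLR1E and POLR1G are its TFIIF-like subunits, POLR1F belongs to the stalk and POLR1H serves RNA cleavage. POLR1E read 1112 and 1107 in DMSO and 999 and 1022 after shikonin (-0.13, 95% interval -0.32 to 0.05), below both controls on each treated array. Its dimmer tested probe sets had changes of the other sign, 0.21 and 0.16, with overlap. POLR1G read 2406 and 2723 against 2285 and 2686 (-0.05), and POLR1F read 2162 and 2246 against 2093 and 2188 (-0.04). The arrays of these genes overlapped. POLR1H read 5957 and 6152 against 6706 and 6734 on an _x_at probe set (0.15, limma adjusted p = 0.123), without overlap and with no call. Its other tested probe sets had changes of -0.04 and, on a dim one, of -0.70.

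Of the 5 subunits in all 3 enzymes, 1 was called. POLR2E, a subunit of the jaw that grips the DNA, read 4894 and 5475 in DMSO and 6046 and 6417 after shikonin. It was 1.20-fold higher without overlap (0.27, SE 0.069, limma adjusted p = 0.0445). Left out in the order DMSO 1, shikonin 1 and shikonin 2, the limma adjusted p was 0.185, 0.0707 and 0.183. POLR2L read 5557 and 5681 against 5984 and 6594 (0.16), and POLR2K read 4836 and 4978 against 5355 and 5254 (0.11). Both were higher on each treated array, with no call. POLR2F (2565 and 2658 against 2532 and 2654) and POLR2H (2880 and 2952 against 2896 and 2959) overlapped almost wholly, at changes of -0.01 (95% interval -0.16 to 0.14) and 0.01 (-0.14 to 0.15). POLR2L and POLR2K belong to the assembly platform.

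The subunits shared by polymerases I and III form their assembly platform. POLR1C read 3450 and 3764 against 3716 and 3545 (0.01), with overlap. POLR1D, in which inherited mutations cause Treacher Collins syndrome, as in POLR1C, read 4753 and 5200 against 4588 and 4434 (-0.14, 95% interval -0.29 to 0.01, limma adjusted p = 0.224). Both treated arrays were below both controls. The antisense gene POLR1HASP read 77.7 and 69.2 against 111 and 112 (0.55, 95% interval -0.08 to 1.18), and the pseudogene POLR2J4 read 338 and 307 against 395 and 407 (0.31, 0.00 to 0.61). Neither gene's groups overlapped, and neither was called.

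Set side by side, the median log2 change was 0.03 over the 6 genes particular to polymerase I, 0.16 over the 8 of polymerase II, 0.11 over the 9 of polymerase III and 0.01 over the 7 shared ones. Called genes numbered 1 of 6, 2 of 8, 1 of 9 and 1 of 7, in that order, all higher. Of all genes tested 5.05% were called higher, and 8.13% of those in the subunits' signal range. Genes higher without overlap were 3, 6, 6 and 3 (50%, 75%, 66.7% and 42.9%), and genes lower without overlap were 1, 1, 2 and 1. The shares over all genes were 28.2% higher and 27.3% lower, and 34.1% and 32.7% in that signal range. The shared class joins unlike groups. The 5 subunits of all 3 enzymes had a median of 0.11, with 3 higher and 0 lower without overlap. For the 2 of polymerases I and III it was -0.06, with 0 higher and 1 lower. With the shared subunits counted in each enzyme that holds them, the medians were 0.01, 0.13 and 0.11 for polymerases I, II and III. The order of polymerases II and III turned without DMSO 2 (0.12 and 0.14), without shikonin 2 (0.13 and 0.14), after quantile normalization (0.11 and 0.14) and without _x_at and _s_at probe sets (0.12 and 0.14). The differences between the enzymes were not tested, since genes are not replicates of the treatment.

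The same comparison array by array used each gene's log2 deviation from its mean over the 4 arrays. For the genes of polymerase II the median deviation was -0.06 and -0.09 in DMSO and 0.06 and 0.07 after shikonin. For polymerase III it was -0.02 and -0.08, then 0.07 and 0.02. Both treated arrays were above both controls in these 2 classes. For polymerase I the values were -0.06 and 0.00, then 0.01 and 0.05, also without overlap but closer together. The shared subunits overlapped, at -0.07 and 0.02 in DMSO and 0.01 and 0.03 after shikonin. Arrays within a group differed with an SD of 0.020 in polymerase II and of 0.036 to 0.042 in the other classes.

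**Figure D3:**
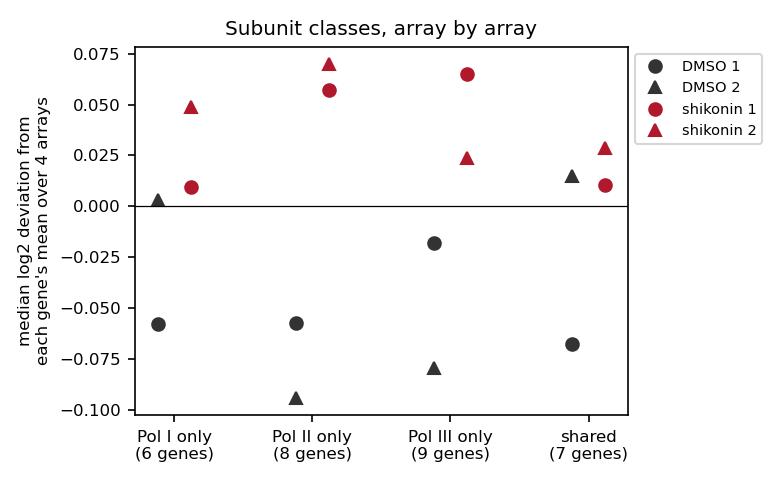
Median over the genes of each class of the log2 deviation from the gene's mean over 4 arrays (y axis), 1 point per array. Black marks DMSO and red marks shikonin. The treated points lie above the controls for the 3 classes particular to 1 polymerase, and the shared subunits overlap.

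The 3 tested probe sets of POLR1A did not move alike. The brightest, 228515_at, was the one called. Probe set 222704_at read 380 and 400 in DMSO and 387 and 466 after shikonin, a change of 0.12 (95% interval -0.19 to 0.43, limma adjusted p = 0.659). Probe set 235280_at read 350 and 336 against 341 and 436, a change of 0.17 (-0.18 to 0.51, limma adjusted p = 0.567). On both, shikonin 1 lay among the controls and shikonin 2 above them, while on 228515_at shikonin 1 was the higher of the treated arrays. Without shikonin 2 these changes were -0.01 on both and that of 228515_at was 0.78. Averaged over its tested probe sets, POLR1A changed by 0.32 and was not called (limma adjusted p = 0.102).

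POLR2A rests on a single bright probe set, 202725_at. Its others were too dim for the test. Probe set 217420_s_at read 1.93 and 23.9 in DMSO and 38.5 and 56.4 after shikonin, and 217415_at read 2.59 and 56.2 against 3.07 and 14.7. Most of these values lie near or below the level that 40% of each array's probe sets do not exceed (34.7 to 37.4), so they give no usable level of POLR2A. The bright probe set gave the same call with pseudocounts of 1 and at the 40th percentile, at changes between 0.37 and 0.50 over all alternatives.

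Across the members, 21 genes had several tested probe sets, and in 9 of them the changes had both signs. Limma called 5 of the 64 as higher and 1 as lower, against 3.92% and 5.28% of all probe sets. The 1 called lower, 224874_at, belongs to POLR1D. It read 3389 and 3183 in DMSO and 2646 and 2624 after shikonin, 0.803 of its control level (-0.32, SE 0.065, limma adjusted p = 0.0181). Another POLR1D probe set, 224857_s_at, overlapped, with 2732 and 2521 against 2701 and 2732 (0.05). The brightest lay between them, as given above, so the direction of POLR1D depends on the probe set. RefSeq lists more than one start for POLR1D, and which transcripts each probe set reads was not determined. POLR2E also differed by probe set, since 213887_s_at read 4186 and 5106 against 4584 and 5037 (0.06). The tested probe sets of POLR2B, POLR2C, POLR2D, POLR2K and POLR3C all had positive changes, and the 3 of POLR3E all had negative ones.

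**Figure D4:**
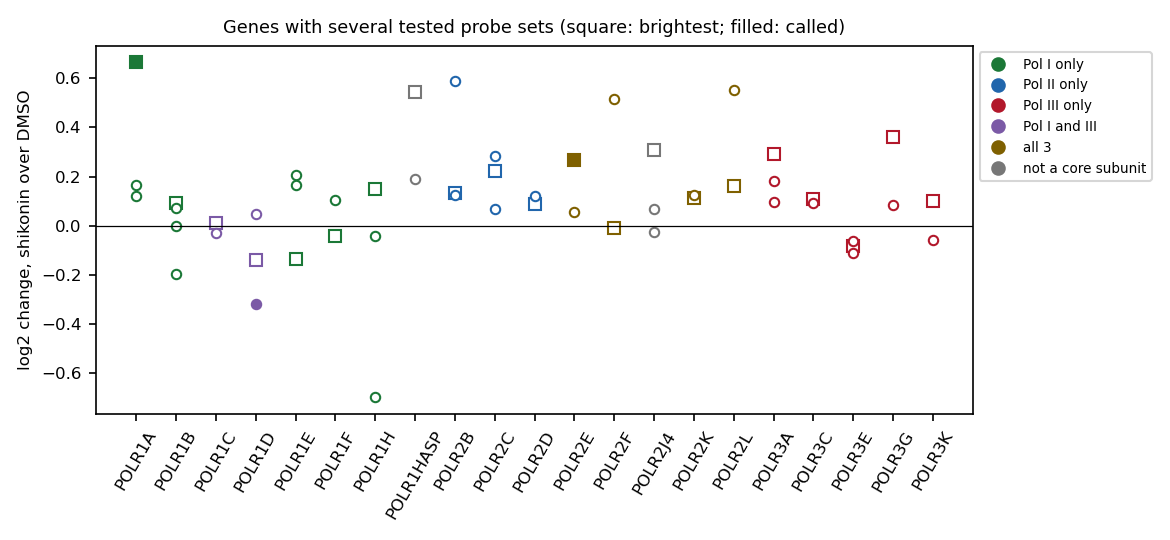
Log2 change after shikonin (y axis) of each tested probe set, for the 21 genes with several. Squares mark the brightest probe set, filled symbols a call, and colours the class. POLR1A, POLR1D and POLR2E each have 1 called probe set beside others with smaller changes, and the changes of 9 genes lie on both sides of 0.

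The factors that work with these enzymes were taken from 9 lists with 150 genes tested of 161. Of the 150, 8 were called higher and 8 lower (5.33% each, against 5.05% and 6.68% of all genes), with a median of 0.04. At an unadjusted p under 0.05, 27 of the 150 were higher and 14 lower, where all 13554 genes gave 1810 and 1989. CRCP, a polymerase III subunit under another symbol, read 903 and 815 against 717 and 803 and was not called (-0.17, limma adjusted p = 0.353).

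Among 17 initiation factors and regulators of polymerase III, 1 rose and 1 fell, with a median of 0.07. BRF2, which recruits polymerase III to genes with external promoters such as that of U6 RNA, rose from 689 and 663 to 1122 and 1147. It was 1.67-fold higher (0.74, SE 0.090, limma adjusted p = 0.00150), its other probe set also changed by 0.74, and it kept the call without any 1 array. SNAPC1, a subunit of the complex that binds small nuclear RNA promoters, fell from 661 and 715 to 525 and 483 (-0.44, limma adjusted p = 0.0387), and lost the call without any 1 array. Over all alternatives the limma adjusted p of SNAPC1 ran from 0.0207 to 0.202.

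Of 9 polymerase I initiation and termination factors, limma called 0 in either direction, with 1 each way at an unadjusted p under 0.05. The smallest p belonged to TAF1D, a subunit of the selectivity factor (768 and 720 against 907 and 1009, limma adjusted p = 0.0546), and to BAZ2A, which silences ribosomal RNA genes (586 and 603 against 480 and 471, limma adjusted p = 0.110). Of 17 general transcription factors of polymerase II, 1 fell and 0 rose by limma (3 higher and 2 lower at an unadjusted p under 0.05). It was CCNH, the cyclin of the kinase that phosphorylates the tail of POLR2A. CCNH went from 3847 and 3702 to 2965 and 3164 (-0.30, limma adjusted p = 0.0222), and was not called without DMSO 1 or shikonin 1 (highest adjusted p over all alternatives 0.254).

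Of 15 TFIID subunits, TAF13 rose (1130 and 1037 to 1443 and 1391; 0.38, limma adjusted p = 0.0235) and TAF6 fell (1592 and 1722 to 1215 and 1331; -0.38, limma adjusted p = 0.0258). Each lost the call without some of the arrays: TAF13 without DMSO 2 or either shikonin array, TAF6 without DMSO 2 or shikonin 1. Mediator, the bridge from activators to polymerase II, had 3 genes higher and 4 lower of 30, with a median of 0.08. MED31 was 1.64-fold higher (864 and 1103 to 1568 and 1654), though 0.15 and 0.47 were the changes on its remaining probe sets and their average was not called. CDK19, a kinase of the Mediator, was 1.66-fold lower (1096 and 995 to 607 and 643) and kept the call without any 1 array.

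The other Mediator genes called were MED19 (0.38) and MED27 (0.32) upward, and MED13L (-0.61), MED17 (-0.38) and MED26 (-0.28) downward. MED26 falls outside the rule for named genes and was named after its value was seen. The direction of MED17 rests on its brightest probe set, as the others ran from -0.00 to 0.54, and those of MED13L ran from -0.76 to 0.86. The other probe set of MED19 changed by 0.08, and averaged over its probe sets MED19 was not called. MED27 lost the call without any 1 array, MED19 without shikonin 2 and MED17 without DMSO 2.

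Among 29 pausing and elongation factors, CTR9 of the PAF1 complex rose (3720 and 3648 to 4341 and 4957; 0.33, limma adjusted p = 0.0240) and AFF1 of the super elongation complex fell (3986 and 3029 to 2495 and 2026; -0.63, limma adjusted p = 0.0199). Neither kept the call without DMSO 1 or without shikonin 2, and CTR9 lost it without DMSO 2 as well. Of 15 kinases and phosphatases of the polymerase II tail, limma called 0 (2 higher and 3 lower at an unadjusted p under 0.05). The closest were SCAF4 (-0.30, limma adjusted p = 0.0555) and CDK13 (0.24, limma adjusted p = 0.0612). Other probe sets had both signs, from -0.08 to 0.38 for SCAF4 and from -0.36 to 0.78 for CDK13.

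Of 17 factors that assemble or import the polymerases, 2 rose and 0 fell by limma (3 and 0 at an unadjusted p under 0.05), with a median of 0.10. TTI1, a scaffold of the TTT co-chaperone complex, rose from 1277 and 1030 to 1717 and 1500 (0.48, limma adjusted p = 0.0316). RUVBL2, an ATPase of the R2TP co-chaperone, rose from 8362 and 8086 to 9564 and 9608 (0.22, limma adjusted p = 0.0297). TTI1 lost the call without DMSO 2 or shikonin 1, and RUVBL2 without any 1 array. The other probe sets of RUVBL2 ran from -0.24 to 0.26.

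Median signals ran from 60.5 to 63.7 over the 4 arrays and the trimmed mean was 499.9 on each, so a log2 change here is a change against the average of its array. Their number limits the precision. Log2 values correlated at 0.980 within each group and at 0.972 to 0.974 between groups. The 10 myeloid markers measured summed to signals of 38813 and 40792 in DMSO and 36072 and 37820 after shikonin, and among them the leukocyte gene PTPRC was called lower (-0.35). The markers were uneven: CEBPA (12983 to 16322 on the 4 arrays), LYZ (8599 to 9585) and ITGB2 (7827 to 8592) were the highest. MPO (40.8 to 99.8), CSF1R (110 to 153) and ITGAM (193 to 221) were below the B cell marker PAX5 (301 to 359), and FCGR1A was too dim for the test. The 6 T cell markers summed to 165 to 243 on the 4 arrays, the 5 of B cells to 700 to 781, the 4 of erythroid cells to 150 to 232, the 5 of epithelium to 123 to 219 and the 5 of fibroblasts to 316 to 423. None of these was called, and none of the markers was at 0. In bulk RNA, a change in the cells present and a change in RNA per cell cannot be told apart.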

How the data were processed

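Total RNA was labelled with biotin during amplification from the 3′ end and hybridized to the arrays, per the labels' protocols. Each deposited value is the intensity of a probe set in linear units. For the summarising software, the sources used here name none. On each of the 4 arrays the mean between the lowest and highest 2% of signals was 499.9, so the deposited values were scaled to a common level. Probe sets were named from the platform annotation supplied with the data: 41097 had 1 symbol, 1801 several and 11777 none, and 0 symbols needed an update against RefSeq.

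Signals were converted to log2(signal + 9.94), the 20th percentile of all values. The 62 controls and the lowest 40% of probe sets by mean log2 were left out, which kept 32768. Groups were compared two-sided with limma 3.58.1 in R 4.3.3 (lmFit, eBayes, trend = TRUE; 2 residual and 7.1 prior degrees of freedom) and Benjamini-Hochberg adjustment. The procedure was run on simulated data whose noise depended on brightness alone. Such data share the assumption of the trended prior, so the run cannot tell whether calls that depend on that prior are right. The brightest probe set by mean signal stood for each gene. Of each list, up to 3 genes called in each direction by smallest p were named, or 2 where none was called. The members, lists, motifs and alternatives were chosen with earlier results of these data known. Alternatives changed the pseudocount, filter, normalization, variance prior, probe set choice and arrays. Promoters came from RefSeq (GRCh38.p14).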

Additional observations from a re-analysis of the deposited data

How the results depend on the processing

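The number of polymerase genes called higher was 3 with no filter on dim probe sets, with quantile normalization, with gene means over probe sets and without _x_at and _s_at probe sets. It was 0 with a single variance prior, and 2 to 4 without 1 array each (2 without DMSO 1, 4 without DMSO 2, 2 without shikonin 1 and 2 without shikonin 2); a lone array in a group was then assumed to vary like the others. The number called lower was 0 under every alternative run. POLR3B was called under 14 of 15 alternatives (not with the single prior), POLR1A and POLR2A under 12 of 15 each, POLR2E under 7 of 14 and POLR2I under 6 of 14, and their direction held in all 73 of these fits. Of the 32 genes, 22 stayed on the same side of the threshold throughout. The replicate numbers are shared by the groups, but no label says whether they pair the samples. Deviations of same-numbered arrays correlated at 0.022 over all tested probe sets, dim ones included, which cannot settle whether the samples are paired. With the replicate number as a block, 10 polymerase genes were called higher, 18 list genes higher and 13 lower, and 1238 of all genes higher and 1328 lower, against 685 and 906.

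The median of the polymerase II genes was 0.18 with the lowest 60% left out, 0.11 after quantile normalization, 0.13 after median centring, 0.19 with gene means, 0.12 without _x_at and _s_at probe sets, 0.13 with shared subunits counted in, and 0.12 to 0.19 without 1 array each. That of polymerase I was -0.044 without _x_at and _s_at probe sets and 0.0092 to 0.069 without 1 array each, and its sign is therefore uncertain. That of the shared subunits was 0.12 with gene means and -0.012 to 0.073 without 1 array each; median centring turned it to -0.012. That of polymerase III ran from 0.10 to 0.14 without 1 array each and was 0.14 both after quantile normalization and without _x_at and _s_at probe sets, above that of polymerase II there. List genes called higher were 4 with no filter, 14 with the lowest 60% left out, 5 after median centring, 0 with a single prior and 4 to 6 without 1 array each; those called lower were 3 with no filter, 0 with a single prior, 5 with gene means and 4 to 8 without 1 array each. With gene means MED17 reversed to 0.053; the cause of these shifts was not tested. The single prior called 0 of all 13554 genes (2417 at an unadjusted p under 0.05), while calls without a filter were 350 higher and 609 lower. Without 1 array each, 303 to 446 genes were called higher and 594 to 681 lower. Dim probe sets, such as that of POLR2J2 and the untested ones of POLR2A, are limited by signal near background.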

Other observations

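Probe sets assigned to several genes were left out of the counts above, and some of them include polymerase genes. One of them, 1552621_at, reads POLR2J, POLR2J2, POLR2J3 and UPK3BL1 together. It gave 1377 and 1197 in DMSO and 1623 and 1636 after shikonin, and was called higher (0.34, SE 0.088, limma adjusted p = 0.0444). Others of the POLR2J family, 1552622_s_at and 216242_x_at, had changes of 0.20 and 0.17, with both treated arrays above both controls and no call. All of these have the sign of the POLR2J probe set and not that of the dim one of POLR2J2.

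POLR2M encodes Gdown1, a protein that binds polymerase II and restrains its elongation, and shares its probe sets with the neighbouring GCOM1. On 212241_at, which also reads MYZAP, signals went from 1393 and 1323 to 1040 and 1117 and the probe set was called lower (-0.33, SE 0.084, limma adjusted p = 0.0424). On 212243_at they went from 3057 and 2957 to 2480 and 2785 (-0.19, limma adjusted p = 0.148), and on the brightest, 212244_at, from 3676 and 3416 to 3599 and 3416 (-0.02). The genes cannot be told apart on these probe sets.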
